A study of Mus musculus with 4 samples.

Results

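Histone genes were described across the cell types of the mouse brain: all genes in both count tables whose symbol begins with Hist1h to Hist4h, H2af or H3f3. These were 70 of the 19040 genes that the frontal cortex and midbrain tables share. They were 55 core histone genes of the Hist clusters (16 H2A, 16 H2B, 10 H3 and 13 H4), 6 linker H1 genes of the Hist1 cluster, 8 replacement genes (6 H2af and 2 H3f3) and 1 antisense transcript, H3f3aos, which enters no sum. The symbols Hist1h3g and Hist1h3h were in 1 table only and were left out. Core and linker genes together are called the 61 cluster genes.

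Cells were dissociated from the brains of C57BL/6 mice aged 6 to 9 months with a protocol aimed at adult glial and vascular cells, and were sequenced with the 10x Genomics 3′ v3 chemistry. There were 4 groups, each 1 library: frontal cortex and midbrain of Huα-Syn(A53T) mice, which carry human α-synuclein with the A53T change, and both regions of their wildtype littermates. The design gives 3 mice a group and the labels say that both regions came from the same mice, while the mouse number label is 3 for frontal cortex and 0 for midbrain. No cell is tied to a mouse and the promoter of the transgene is not given in the sources used here. Each group was therefore 1 sample: no test between groups was possible, every interval covers counting error only, and genotype and library cannot be told apart.

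The libraries held 3775 transgenic and 6239 wildtype frontal cortex cells and 3995 transgenic and 7635 wildtype midbrain cells, with median depths of 6900 to 8193 UMIs (unique molecular identifiers, 1 per captured RNA molecule) and 3 to 15 cell barcodes shared between libraries. The authors' type labels were checked against marker lists. AC cells were highest in 7 of 7 astrocyte markers, MG cells in 6 of 6 microglial markers and EC cells in 6 of 6 endothelial markers in both regions. Frontal cortex imNeur cells were highest in 8 of 8 immature neuron markers, but midbrain imNeur cells were highest in 0 of 8 of them and in 7 of 7 oligodendrocyte progenitor markers, and midbrain mNeur cells in 7 of 8 immature and 5 of 5 mature neuron markers. OPC cells were highest in 4 of 4 fibroblast markers in both regions, and in frontal cortex also in 5 of 7 oligodendrocyte progenitor markers. MNC cells were highest in 4 of 4 lymphoid markers, and frontal cortex EPC cells in 3 of 3 ependymal and 2 of 2 choroid plexus markers. The labels are printed as deposited. The label Hb_EC, with few cells, was left out of the ranges.

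DNA in the nucleus is wound around octamers of the core histones H2A, H2B, H3 and H4, and the linker histone H1 binds where the DNA enters and leaves the octamer. Most histone protein is made while DNA is copied, from replication-dependent genes packed in clusters. Their messenger RNAs end in a short stem-loop held by the stem-loop binding protein, not in a poly(A) tail. Replacement histones such as H3.3, H2A.Z and macroH2A come from single genes with polyadenylated messenger RNAs and are made throughout the cell cycle. A 3′ library primed on poly(A) takes up replacement transcripts as it does other messengers, and takes up cluster transcripts where they carry a poly(A) stretch. Each UMI stands for 1 captured molecule, so levels here need no correction for length. They are levels of captured and counted transcripts, and capture can differ between genes and between the classes.

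The letters that set the classes apart lie behind the stop codon. The stem-loop searched for was a stem of 6 bases on each side of a loop of 4 (TTT and any base, in capitals below). The search covered the whole length of the longest protein-coding GENCODE model of each gene in GRCm38, the assembly that mm10 names. For genes other than the members, the place of the stem-loop relative to the stop codon was not checked. The stem-loop was found in 43 of the 61 cluster genes, in 1 of the 8 replacement genes (H2afx) and in 3 of 15915 other genes with a model, 0.0189% of them (Nova2, Syncrip and Trim17, the last of which overlaps Hist3h2a on the same strand over 2146 bases). Hist1h1c stands for 25 genes with the same letters, among them Hist1h1d, Hist1h1e, Hist1h2ap and Hist3h2a. Hist1h4d stands for 7 H4 genes and Hist1h3c for 6 genes. Hist1h4i and Hist1h4b each share theirs with 1 other gene, and Hist2h2ac and H2afx are alone with theirs. They are shown, 5′ to 3′ as DNA letters, because they mark the members whose annotated transcript holds the end of a replication-dependent messenger.
Hist1h1c: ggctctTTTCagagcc
Hist1h4d: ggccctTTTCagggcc
Hist1h3c: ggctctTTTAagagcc
Hist1h4i: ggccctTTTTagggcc
Hist1h4b: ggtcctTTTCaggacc
Hist2h2ac: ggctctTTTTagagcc
H2afx: ggccctTTTAagggcc

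The stem differed between the H4 genes and most H2A, H2B, H3 and H1 genes, and the last base of the loop was C, A or T. The stem-loop began 22 to 59 bases behind the stop codon, with a median of 32. In the same models the poly(A) signal AATAAA stood in the last 60 bases of 13 of the 61 cluster genes and 4 of the 8 replacement genes, against 64.4% of all other genes. The Hist1 genes (48 members) lie at chr13:21715763-23764406, the Hist2 genes (10 members) at chr3:96219865-96270132, the 2 Hist3 genes at chr11:58948920-58956830 and Hist4h4 at chr6:136801553-136804415. Genes of 1 core class have near-identical coding sequences and 7 members overlap another gene on the same strand, Hist1h1e and Hist1h2be over 496 bases, so the split of reads among such genes is uncertain.

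Counts of the 4 libraries together held 780505 histone UMIs. Replacement genes gave 82.8% of them, core genes 11.7% and linker genes 5.51%. Among the 134430 UMIs of the cluster genes, Hist1h2bc alone gave 28.9%, Hist1h1c 18.3%, Hist1h1e 10.4%, Hist3h2a 5.10% and Hist1h4d 4.68%, together 67.5%. At the other end, 17 of the 61 cluster genes had under 100 UMIs over all cells. A few genes thus made up most of the cluster UMIs counted.

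In astrocytes, the summed level of the core genes lay between 457 and 539 counts per 1000000 UMIs (CPM) in the 4 libraries, that of the linker genes between 90.2 and 145 and that of the replacement genes between 1322 and 1651. Cluster genes gave 27.8% to 31.0% of astrocyte histone UMIs. In microglia core genes lay at 516 to 655 CPM, linker genes at 315 to 455 and replacement genes at 4819 to 6516, and the cluster share was 12.7% to 14.7%. Endothelial cells had 368 to 402, 165 to 264 and 3435 to 3860 CPM, with a share of 13.7% to 14.8%. The astrocyte share did not overlap that of microglia or endothelium in any library, and the replacement level of astrocytes was below that of both, while the core levels of the 3 types all lay between 368 and 655 CPM.

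Among the rarer labels, PC cells had the lowest cluster share, 7.78% to 8.88%, and EPC cells had 30.6% to 41.1% from only 14 to 114 cells a library. Core levels in EPC cells reached 1299 to 1903 CPM. In CPC cells the share ran from 17.9% to 43.4%, and that label had different leading markers in the 2 regions (3 of 3 olfactory ensheathing markers in frontal cortex, 2 of 2 choroid plexus markers in midbrain). Frontal cortex imNeur cells had the highest replacement level, 11739 CPM in the transgenic and 13582 CPM in the wildtype library, with 2152 and 2047 CPM of core genes. Midbrain imNeur cells, with their oligodendrocyte progenitor markers, had 2570 and 3002 CPM of replacement and 506 and 374 CPM of core genes.

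**Figure D1:**
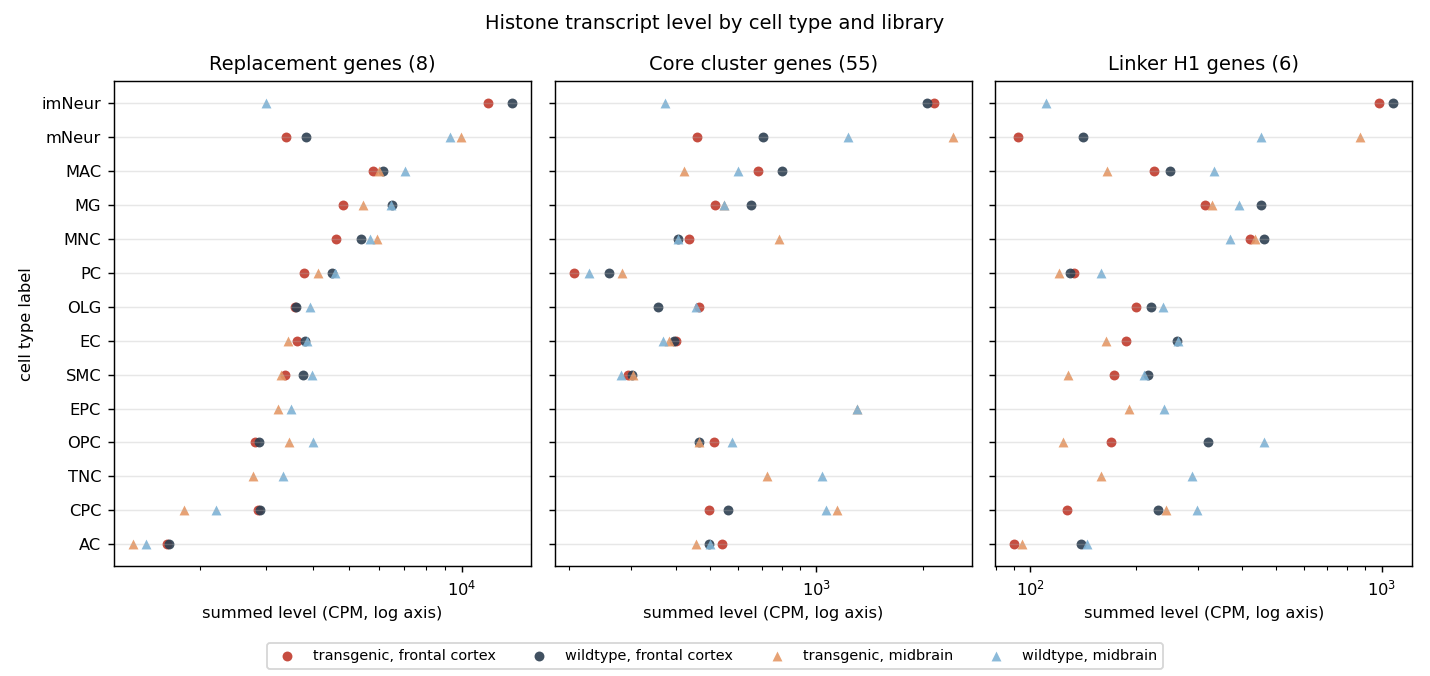
Summed CPM of core, linker and replacement histone genes on a log axis, by cell type label, 1 point per library with at least 20 cells of the label. Colour and shape give genotype and region. Replacement genes lie above core genes in each label, and astrocytes have the lowest replacement level, 1322 to 1651 CPM.

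Hist1h2bc, an H2B gene, was the cluster gene with the highest mean level over types and libraries, 242 CPM. Astrocytes had 367 CPM in transgenic and 325 in wildtype frontal cortex and 274 and 316 in midbrain. Microglia had 107, 140, 79.1 and 95.2 CPM in the same order, and endothelial cells 177, 152, 159 and 161. The 3 types did not overlap. Still higher levels were found in midbrain CPC cells, 830 and 838 CPM, and in EPC cells, 483 to 1095 CPM. PC cells had the lowest mean of the labels compared, 53.8 CPM, at 42.5 to 64.0.

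As a share of all cluster UMIs, Hist1h2bc made up 58.3%, 51.1%, 49.6% and 49.0% in the astrocytes of the 4 libraries (exact Clopper-Pearson 95% interval of the first 56.9% to 59.8%). It made up 9.00% to 12.9% in microglia and 23.1% to 29.99% in endothelial cells. Microglial cluster UMIs were led by linker genes instead, Hist1h1c in frontal cortex (17.3% and 18.3%) and Hist1h1e in midbrain (17.96% and 18.17%). In midbrain CPC cells Hist1h2bc reached 59.8% and 61.4%.

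Linker H1 genes differed among types in another order. Hist1h1c, which codes for the H1.2 protein, had 60.4, 79.3, 68.2 and 98.1 CPM in astrocytes (transgenic and wildtype frontal cortex, then transgenic and wildtype midbrain), 144, 203, 130 and 163 in microglia and 125, 162, 115 and 177 in endothelial cells. Astrocytes were thus below both other types in each library. Hist1h1e, the gene of H1.4, had 27.1, 53.9, 22.7 and 40.7 CPM in astrocytes and 128, 187, 158 and 171 CPM in microglia. Frontal cortex imNeur cells had the highest Hist1h1e values, 326 CPM transgenic and 331 CPM wildtype. Hist1h1b, the gene of H1.5, was low outside the neuronal and lymphoid labels: endothelial cells had 0.240 to 1.08 CPM. Frontal cortex imNeur cells had 352 and 424 CPM and midbrain mNeur cells 245 and 125. Not each neuronal group was high: frontal cortex mNeur cells had 5 and 9 UMIs and midbrain imNeur cells 0 and 2.

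Of the H2A genes, Hist3h2a was found at similar levels in the 3 large types, 30.7 to 42.9 CPM in astrocytes, 23.6 to 40.2 in microglia and 37.8 to 42.2 in endothelial cells. Its neighbour Hist3h2ba, an H2B gene, was not: astrocytes had 1.43 to 2.79 CPM, microglia 2.005 to 3.58, and imNeur and mNeur cells 137 to 424 and 125 to 282. Hist1h2ap and Hist1h2ae code for H2A and were low in astrocytes, 2.19 to 4.43 CPM and 1.34 to 1.65 CPM. In frontal cortex imNeur cells they had 475 and 370 CPM and 274 and 265 CPM, and in midbrain mNeur cells 695 and 159 CPM and 332 and 108 CPM.

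Both H4 genes among the 10 highest cluster genes differed between types. Hist1h4h had 238 to 423 CPM in EPC cells in the 4 libraries, and CPC cells came next with 15.2 to 74.1 CPM, so these ranges did not overlap. It gave 9.79% to 24.5% of EPC cluster UMIs. Hist1h4d lay at 103 and 185 CPM in frontal cortex imNeur cells, 47.4 to 71.1 CPM in microglia and 10.1 to 17.4 CPM in astrocytes.

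The replacement genes H3f3b, H3f3a and H2afz had the highest mean levels of all members, 2366, 1081 and 399 CPM. H3f3b and H3f3a code for the same protein, H3.3, from separate genes, and their levels followed different orders of types. H3f3b had 525, 555, 368 and 406 CPM in astrocytes, 3641, 5265, 4305 and 5245 in microglia and 1596, 1723, 1552 and 1784 in endothelial cells. H3f3a had 504, 541, 446 and 491 CPM in astrocytes, 563, 649, 562 and 640 in microglia and 1192, 1266, 1119 and 1235 in endothelial cells. The microglial level was thus far above the astrocyte level for H3f3b and close to it for H3f3a. Both were high in frontal cortex imNeur cells, H3f3b at 5092 and 6247 CPM and H3f3a at 4184 and 4509 CPM.

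Of the H2A variants, H2afz and H2afv code for forms of H2A.Z, which marks promoters. H2afz had 140 to 184 CPM in astrocytes, 300.3 to 315 in microglia, 292 to 362 in endothelial cells and 1280 and 1489 in frontal cortex imNeur cells. H2afv was lowest in microglia, 49.4 to 61.7 CPM, against 126 to 135 in astrocytes and 215 to 246 in endothelial cells. The macroH2A gene H2afy was highest in MNC cells, 247 to 379 CPM, and H2afj, the gene of H2A.J, had its highest mean there too, 211 to 382 CPM. Microglia had 51.4 to 73.5 CPM of H2afj and astrocytes 116 to 146.

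Over all 70 members, 30 had their highest mean level in imNeur cells, 10 in MNC cells, 8 in EPC cells and 6 in TNC cells, and AC and PC cells were highest for 1 each. This count is a description: the means weight each library alike, and labels with as few as 12 cells in a library enter it. The imNeur means also join unlike cells, with immature neuron markers in frontal cortex and oligodendrocyte progenitor markers in midbrain. H3f3aos is counted here, as the 1 member highest in PC cells.

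**Figure D2:**
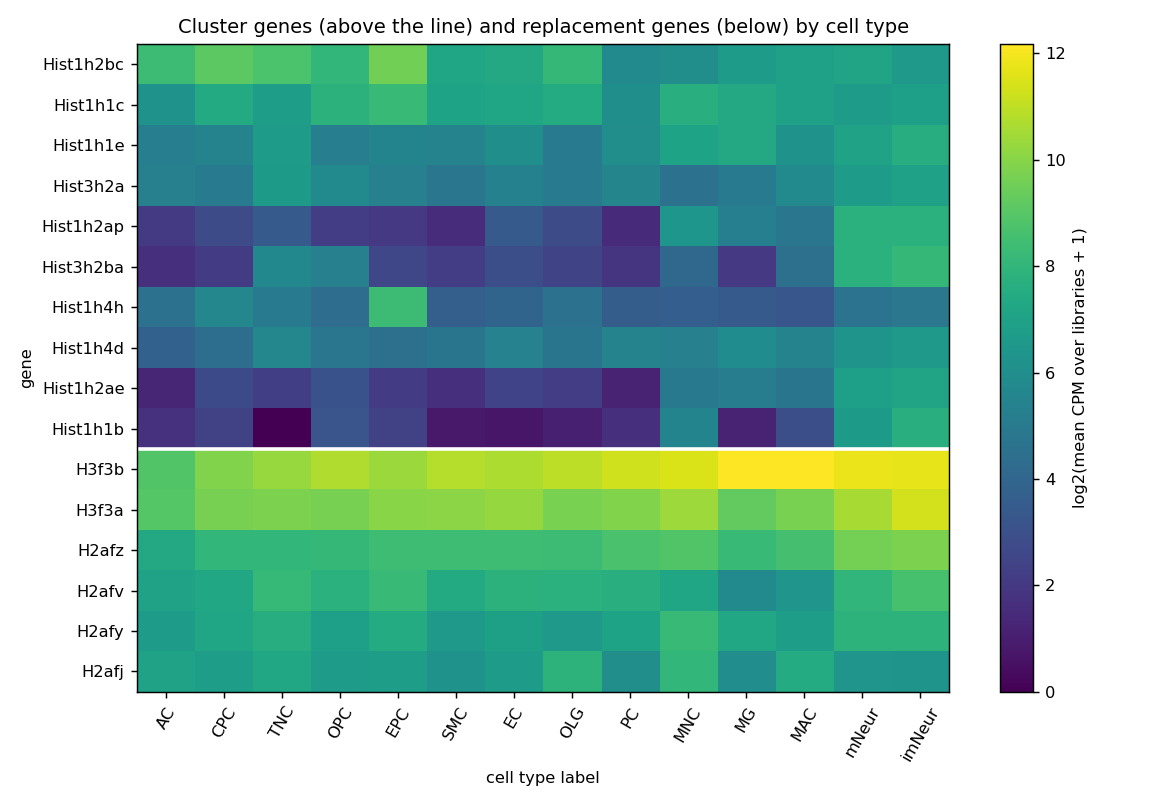
Mean CPM over libraries of the 16 members named by level, as log2(mean CPM + 1) on a colour scale, by cell type label, with cluster genes above the white line and replacement genes below it. Hist1h4h stands out in EPC cells (238 to 423 CPM), and Hist3h2ba in mNeur and imNeur cells (125 to 282 and 137 to 424 CPM).

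Dividing imNeur cells served as the reference. A cell was called dividing at 5 or more UMIs of a list of 20 genes of G2 phase and mitosis that holds no member. In frontal cortex 21 of 181 imNeur cells passed, 6 transgenic and 15 wildtype. Of these, 3 had 5 to 9 such UMIs and 18 had 10 or more, and 1 further cell had 3 or 4. No midbrain imNeur cell passed (0 of 84, the highest at 2 UMIs, which allows a share of up to 3.57%), nor did any frontal cortex mNeur cell (0 of 147, up to 2.04%). The dividing cells were deeper, with a median of 13785 UMIs against 7015, and held 484 UMIs of a 16-gene list of S phase at 1686 CPM against 112 CPM in the other cells, so the list chosen for later phases also took cells with S-phase transcripts. A further 5 frontal cortex imNeur cells passed the S-phase list alone. They had 1531 CPM of core genes and a cluster share of 14.8%, against 1394 CPM and 15.1% in cells that passed neither list. The 3 transgenic cells had 1940 CPM and 17.5%, and the 2 wildtype cells 643 CPM and 7.06%. Both core levels were below those of the dividing cells of the same library, 5553 and 4340 CPM, but rest on 3 and 2 cells.

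Summed core genes had 4771 CPM in dividing and 1402 CPM in other frontal cortex imNeur cells, a log2 ratio of 1.77 (exact 95% interval 1.66 to 1.87). Linker genes had 2581 against 644 CPM, log2 2.003 (1.85 to 2.15), and replacement genes 17689 against 11529 CPM, log2 0.62 (0.57 to 0.66). Within the transgenic library the 3 log2 ratios were 1.93, 1.599 and 0.54, and within the wildtype library 1.68, 2.28 and 0.64. The core and linker ratios thus exceeded the replacement ratio in both libraries. Cell by cell the groups overlapped: the cluster level ran from 560 to 15419 CPM with a median of 5975 in dividing cells and from 0 to 11688 with a median of 1660 in the others.

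In this comparison 42 of 69 members reached 20 CPM in at least 1 of the groups. With an interval that leaves out 0 and at least 1.5-fold (0.58 on the log2 scale), 30 were higher and 2 lower in dividing cells, where 13.6% of all genes were called higher and 12% lower. Of the 42, 19 reached 20 CPM in the dividing cells alone and so entered through the group where they are high. Among the 23 that reached it in both groups, 13 were higher and 2 lower.

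The members with the highest ratios at 20 or more UMIs were low or absent in other cells. Hist1h3c, an H3 gene, had 54 UMIs in the 21 dividing cells and 2 in the 160 others, 188 against 1.79 CPM (log2 6.71, 4.79 to 9.79). Hist1h2ab and Hist2h2ac, both H2A genes, had 52 against 5 UMIs (log2 5.34) and 23 against 5 (log2 4.16). Hist1h3c UMIs were found in 13 of 21 dividing cells, 1 of 160 other imNeur cells, 0 of 1935 frontal cortex astrocytes (which allows up to 0.155% of cells with a captured UMI, and sets no limit on cells expressing the gene) and 7 of 3357 microglia. With each cell thinned to 3000 UMIs, it was in 9 of 21 dividing and 0 of 138 other cells (up to 2.17%).

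The linker gene Hist1h1b had 1519 CPM in dividing and 103 CPM in other cells (log2 3.88, 3.58 to 4.19), and Hist1h1a, the gene of H1.1, had 47 against 16 UMIs (log2 3.51). Hist1h2ap had 1463 against 145 CPM (log2 3.33) and Hist1h2ae 937 against 96.9 (log2 3.27). Hist1h1d and Hist1h1e followed with log2 2.40 and 0.91. Hist1h1c, the most abundant linker gene, did not share this pattern, at 205 against 215 CPM (log2 -0.07, -0.50 to 0.35), and its ratio was -1.52 in the transgenic and 0.70 in the wildtype library.

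Hist1h2bc, the leading cluster gene of astrocytes, had 83.6 CPM in dividing and 99.6 CPM in other imNeur cells (log2 -0.25, -0.95 to 0.39). It made up 1.14% of the cluster UMIs of dividing cells (24 of 2111), which were led by Hist1h1b with 20.7%, Hist1h2ap with 19.9% and Hist1h2ae with 12.7%. The cluster share of histone UMIs was 29.4% in the dividing cells (28.3% to 30.4%), against 27.8% to 31.0% in astrocytes. The pooled value hides a difference between libraries, 33.0% (31.1% to 34.9%) in the transgenic and 27.5% (26.3% to 28.8%) in the wildtype library, on either side of the astrocyte range.

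Both Hist3 genes were lower in dividing cells. Hist3h2a had 69.7 against 189 CPM (log2 -1.44, -2.18 to -0.78), and Hist3h2ba 167 against 455 CPM (log2 -1.44, -1.90 to -1.02). In the transgenic library alone the Hist3h2a ratio was -0.31 with an interval of -1.28 to 0.54, from 13 UMIs in dividing cells, and in the wildtype library -2.50. Hist3h2ba was the leading cluster gene of the other imNeur cells, 22.2% of their cluster UMIs.

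The replacement genes split. H2afx, the gene of H2A.X, which is phosphorylated at DNA breaks and carries the stem-loop shown above, had 505 against 37.7 CPM (log2 3.74, 3.24 to 4.28). H2afz had 4329 against 645 CPM (log2 2.75) and H2afv 1257 against 369 CPM (log2 1.77). The H3.3 genes differed less, H3f3b with 6732 against 5498 CPM (log2 0.29, 0.22 to 0.37) and H3f3a with 4197 against 4414 CPM (log2 -0.07, -0.16 to 0.02). H2afy and H2afj had intervals that include 0, with log2 0.31 and -0.28, the latter the third smallest ratio.

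The machinery that makes and carries histones was taken from a fixed list of 35 genes. By the same rule, past 1.5-fold with an interval that leaves out 0, all 8 chaperones of replication-coupled deposition were higher in dividing cells, summed 1271 against 552 CPM (log2 1.20), for example Nasp, which stores H3 and H4, with log2 1.501 and Chaf1a, a subunit of the assembly factor CAF-1, with 3.76. Of 11 genes for transcript processing that were measured well enough, 3 were higher and 0 lower, among the higher Slbp, which binds the stem-loop, with 261 against 93.3 CPM (log2 1.49). Among 11 chaperones of replacement histones 1 was higher and 1 lower. The last 2 counts are read against the 13.6% and 12% of all genes above. Atrx, which deposits H3.3, had log2 -0.16 (-0.44 to 0.10). The 3 histones listed outside the symbol rule were higher too: Cenpa, the centromeric H3, had 362 against 8.07 CPM (log2 5.49), H1f0, a linker histone of resting cells, 550 against 218 CPM (log2 1.34), and H1fx log2 1.597.

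Midbrain mNeur cells, added as a second reference after the imNeur cells there were seen to hold no dividing cell, contained 14 dividing cells of 143, 7 in each library. Core genes had 4832 against 962 CPM (log2 2.33), linker genes 1976 against 310 CPM (log2 2.67) and replacement genes 16281 against 8180 CPM (log2 0.99). Of 46 members at 20 CPM in at least 1 group, 37 were higher and 2 lower with an interval that leaves out 0, where 18.8% of all genes were higher and 14.9% lower. Only 19 reached the minimum in both groups, and 12 of these were higher and 2 lower. Hist1h3c had 29 UMIs against 0 (at least 5.64 on the log2 scale, from a floor of 3 UMIs over the group), Hist1h2ap a log2 ratio of 4.69, Hist1h1b 4.55 and H2afx 4.86. Hist3h2a and Hist3h2ba were again lower, -1.64 and -1.595, and Hist1h2bc and H3f3a had -0.33 and -0.01 with intervals that include 0. H3f3b had 0.91 here.

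**Figure D3:**
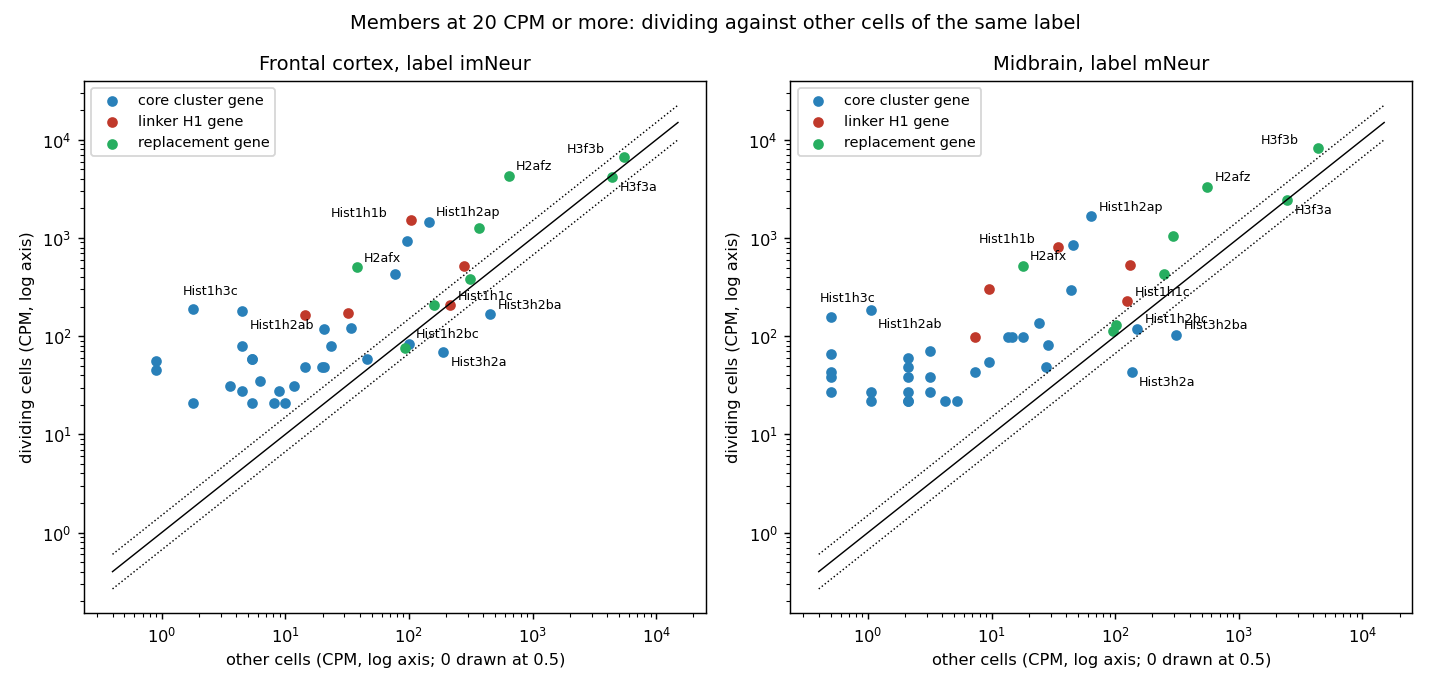
CPM in dividing cells (vertical) against other cells of the same label (horizontal), both on log axes, 1 point per member at 20 CPM or more in at least 1 group, for frontal cortex imNeur and midbrain mNeur cells. The solid line marks equal levels and the dotted lines 1.5-fold. Hist1h3c, Hist1h2ab, H2afx, Hist1h1b and Hist1h2ap lie far above the lines in both panels, and Hist3h2a and Hist3h2ba below them.

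The genotypes were compared in astrocytes, microglia and endothelial cells, the 3 types with the most cells. The linker genes had lower summed levels in the transgenic library in all 6 pairs. In astrocytes the linker sum was 90.2 CPM transgenic and 140 wildtype in frontal cortex (log2 -0.63, -0.77 to -0.49) and 94.9 and 145 CPM in midbrain (log2 -0.62, -0.72 to -0.51). Microglia had 315 and 455 CPM in frontal cortex (log2 -0.53) and 330 and 394 CPM in midbrain (log2 -0.25). Endothelial cells had 187 and 263 CPM (log2 -0.49) and 165 and 264 CPM (log2 -0.68). With 1 library a group, the spread between mice is unknown and these differences are between libraries.

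Hist1h1e was past 1.5-fold lower in 4 of the 6 pairs. In astrocytes it had a log2 ratio of -0.99 in frontal cortex (-1.25 to -0.75) and -0.84 in midbrain (-1.06 to -0.64), from the levels given above. In endothelial cells it had 57.1 CPM transgenic and 87.0 wildtype in frontal cortex (log2 -0.61) and 44.6 and 71.9 in midbrain (log2 -0.69). With each cell thinned to 3000 UMIs both endothelial ratios fell short of 1.5-fold, at -0.48 and -0.50, so the 2 astrocyte calls were left. Hist1h1c was past that size in midbrain endothelial cells alone, 115 and 177 CPM (log2 -0.63), with -0.39 and -0.52 in astrocytes and -0.50 and -0.33 in microglia. Hist1h1d was past it in frontal cortex microglia, 39.8 and 60.2 CPM (log2 -0.60), and short of it, at -0.56, when mitochondrial and ribosomal genes were left out of the total. In astrocytes and endothelial cells Hist1h1d was under the 20 CPM minimum and so could not be called. Its log2 ratios there were -1.52 and -0.98 in astrocytes (8 against 28 and 17 against 48 UMIs) and -1.21 and -1.59 in endothelial cells (41 against 243 and 30 against 188 UMIs) of frontal cortex and midbrain.

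Hist1h1e was the only member called in astrocytes. Of 12 members measured at 20 CPM or more in frontal cortex astrocytes, 1 was lower and 0 higher, where 2.96% of all genes were lower and 3.6% higher. Of 13 in midbrain astrocytes, 1 was lower and 0 higher, against 0.594% and 0.806% of all genes. Of 11 in endothelial cells, 1 was lower in frontal cortex (1.03% of all genes lower, 1.09% higher) and 2 in midbrain (0.943% lower, 0.929% higher), and none was higher. No p-value stands behind these counts, which come from single libraries.

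Microglia had other members past 1.5-fold. Of 18 measured, 2 were lower and 0 higher in frontal cortex, where 0.974% of all genes were lower and 1.26% higher. In midbrain 1 of 18 was lower and 2 were higher, against 2.47% and 0.954%. The H2A gene Hist1h2ac was lower in both regions, 31.4 and 72.7 CPM in frontal cortex (log2 -1.21) and 33.5 and 64.1 CPM in midbrain (log2 -0.94). Hist1h2ap had 54.4 and 29.6 CPM in midbrain microglia (log2 0.88), and Hist1h4d 71.1 and 47.4 CPM (log2 0.59). The Hist1h4d ratio was just below 1.5-fold without dividing cells (0.58), and 0.44 as a per-cell mean and 0.43 in thinned cells. Dividing cells were few among the microglia, 4 in transgenic and 0 in wildtype frontal cortex and 2 and 3 in midbrain, and the G2/M list had 29.2 and 9.91 CPM in frontal cortex and 15.3 and 18.5 CPM in midbrain.

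Core and replacement sums differed less than the linker sums in most pairs. The core sum had log2 ratios of 0.12 and -0.13 in astrocytes, -0.34 and 0.00 in microglia and 0.02 and 0.06 in endothelial cells of frontal cortex and midbrain. The frontal cortex astrocyte value turned to -0.016 with cells of under 10% mitochondrial UMIs and at least 500 genes. Within the authors' frontal cortex astrocyte clusters 1 and 4 the core ratio was -0.02 (-0.10 to 0.07) and -0.34 (-0.51 to -0.17). The replacement sum had -0.02 and -0.12, -0.44 and -0.25, and -0.07 and -0.17. Within the same 2 clusters the replacement ratio was -0.21 (-0.26 to -0.16) and -0.22 (-0.32 to -0.12), below the -0.02 of the whole label. In microglia H3f3b carried most of the replacement difference, 3641 CPM transgenic and 5265 wildtype in frontal cortex (log2 -0.53) and 4305 and 5245 in midbrain (log2 -0.28). H1f0, outside the symbol rule, had 36.1 and 54.3 CPM in frontal cortex astrocytes (log2 -0.59), and in frontal cortex endothelial cells 114 and 97.1 CPM (log2 0.23, 0.12 to 0.34), so this linker histone was not lower in each type.

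The same direction was counted over 15 pairs of label and region with 50 or more cells in both libraries. The linker sum was lower in the transgenic library in 14 of 15, in 12 with an interval that leaves out 0, with log2 ratios from -1.01 to 0.04 and a median of -0.49. The replacement sum was lower in 15 of 15, in 14 with such an interval, at -0.44 to -0.02. The value nearest 0, that of frontal cortex astrocytes, ran from -0.035 to 0.044 under the processing alternatives, so its direction was not stable. H3f3b was lower in 15 of 15, at -0.53 to -0.08. Hist1h1c was lower in 13, in 12 with such an interval, and higher with one in 1. Hist1h1e was lower in 13, in 6 with such an interval. The core sum was lower in 7 of 15, in 6 with such an interval, and 3 of the others were higher with one. The 15 pairs come from only 4 libraries, so they share whatever sets a library apart, and the part of the library in these differences was not tested. How many of all genes were lower in as many pairs was not counted. These counts are therefore not shown to be particular to histone genes. The median over all genes tested lay within 0.05 of 0 in the 6 comparisons above.

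Median mitochondrial shares moved with genotype in frontal cortex astrocytes, 9.68% transgenic against 5.27% wildtype, and less in midbrain, 7.07% against 6.54%. With cells of under 10% mitochondrial UMIs and at least 500 genes, the linker log2 ratio was -0.58 and -0.63 in the 2 regions. Within each of the 8 astrocyte clusters of the authors that held 50 or more cells in both libraries, the linker sum was lower in the transgenic library, at -0.67 and -0.65 in frontal cortex clusters 1 and 4 and -0.44 to -0.89 in midbrain clusters 1, 3, 4, 5 and 10. Midbrain cluster 22 had -2.43 from 2 and 16 UMIs.

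**Figure D4:**
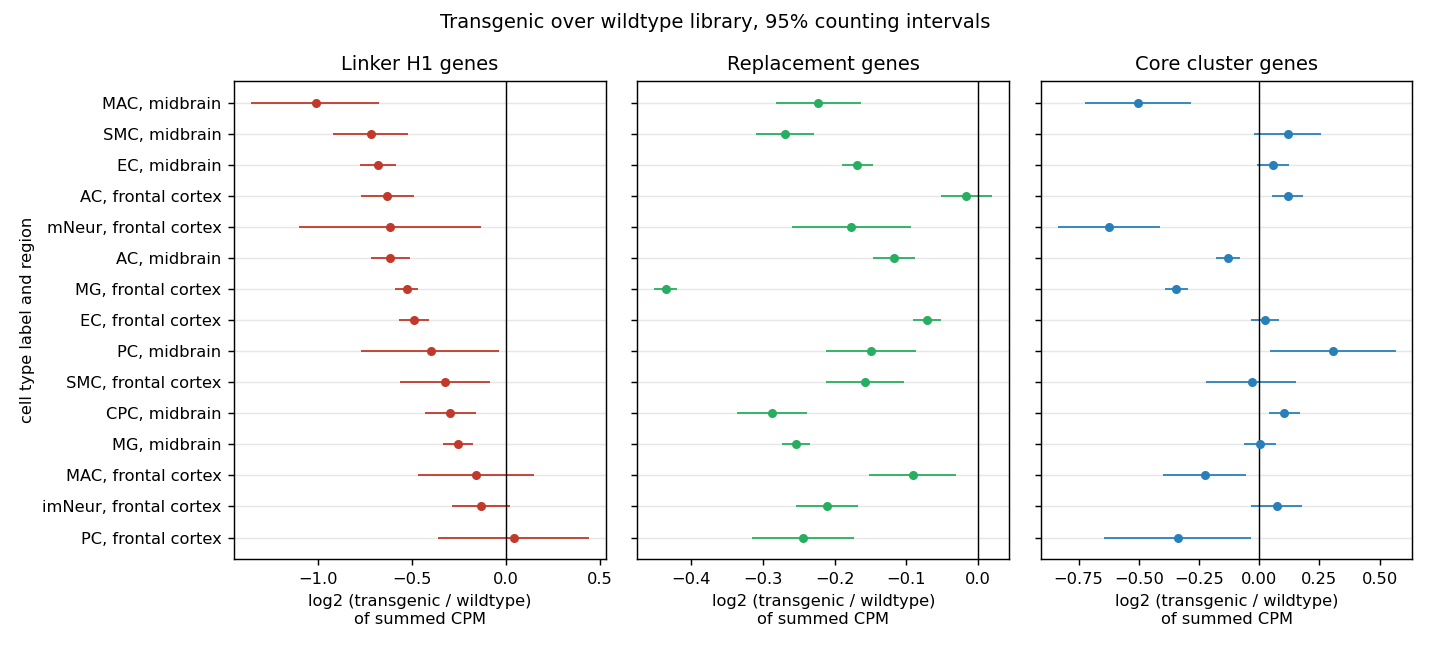
Log2 ratio of the transgenic over the wildtype library for the summed CPM of linker, replacement and core genes, with exact 95% counting intervals, in the 15 pairs of label and region with 50 or more cells in both libraries. The horizontal scales differ between the panels. The linker sum lies below 0 in 14 of the 15 pairs and the replacement sum in 15, and the core sum lies on both sides of 0.

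Between the regions, within a genotype, few members differed by 1.5-fold. In astrocytes 0 of 12 members were called in either genotype, where in the wildtype libraries 6.58% of all genes were higher and 7.06% lower in midbrain, and in the transgenic libraries 8.45% and 8.6%. In wildtype microglia 0 of 18 were called (2.44% and 0.994% of all genes), and in transgenic endothelial cells 0 of 11 (0.894% and 0.557%). Wildtype endothelial cells had 1 of 11, Hist1h4d, lower in midbrain with 31.3 against 48.6 CPM (log2 -0.64), where 0.656% of all genes were higher and 0.134% lower. Transgenic microglia had 1 of 18 higher, Hist1h2ap with 54.4 against 35.0 CPM (log2 0.64, but 0.52 as a per-cell mean, 0.54 in thinned cells and 0.58 without the 10 cells with most histone UMIs), and 1 lower, Hist3h2a with 23.6 against 36.4 CPM (log2 -0.62), where 1.65% and 1.37% of all genes were. With 12 members, a count of 0 is near these shares. These comparisons use the same libraries as those between genotypes.

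Cluster genes were also grouped by the length of the annotated 3′ end, with ranges of level that overlapped between the groups. In 21 genes the longest model stops within 100 bases of the stem-loop. Their median level over types was 1.32 CPM, and 0 of them had AATAAA behind it. In 22 genes the model runs on for more than 100 bases, with a median of 761, and 13 had AATAAA there. Their median level was 11.6 CPM, and they include Hist1h1c (840 bases behind the stem-loop), Hist1h1e (1153) and Hist1h2ac (2010). In the remaining 18 genes no stem-loop was found in the model, several of which hold coding sequence only. Their median was 1.37 CPM, and 5 of them had AATAAA behind the stop codon. Hist1h2bc with 242 CPM is among these 5, with a model of 1156 bases whose stop codon ends at base 414. A model that stops at the stem-loop can also collect fewer reads in counting, and the annotation the authors counted on is not given in the sources used here, so the part of annotation in these levels was not tested.

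In dividing cells the ranges of the same groups overlapped. Of the genes that stop at the stem-loop, 11 were measured in the imNeur comparison, with a median log2 ratio of 3.33 (1.08 to 6.71). Of those that run on, 13 were measured, with a median of 1.31 (-1.44 to 3.27). The 10 measured genes without a stem-loop had a median of 3.05 (-0.25 to 5.96). Genes of the first group mostly reached the minimum through the dividing cells, so these medians describe the genes that could be measured. In level, 3 genes of the first group were above the median of the second: Hist1h2ap, whose model ends 3 bases behind the stem-loop, with 46.2 CPM, Hist1h4h (46 bases) with 42.6 CPM and Hist2h2aa1 (35 bases) with 19.3 CPM.

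**Figure D5:**
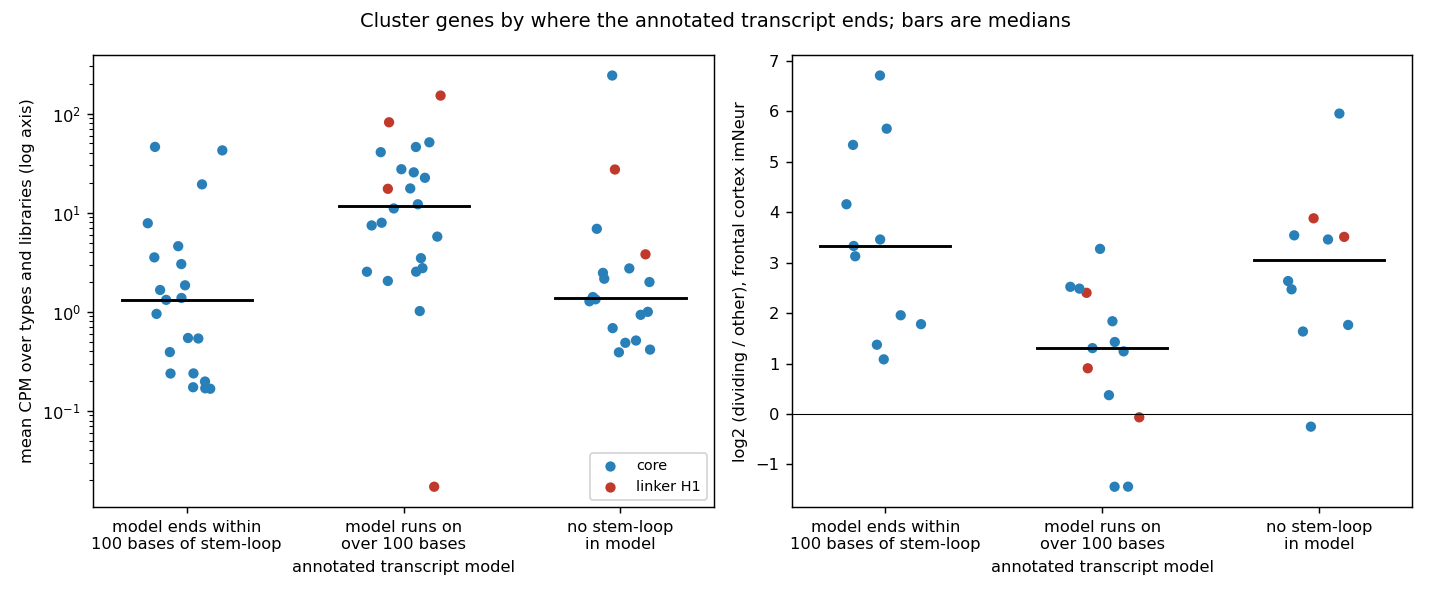
Mean CPM over types and libraries (left, log axis) and log2 ratio of dividing against other frontal cortex imNeur cells (right), 1 point per cluster gene (right: per gene measured), grouped by the end of the longest transcript model, with the median as a bar. Genes whose model runs on have the highest median level, 11.6 CPM, and the lowest median ratio, 1.31.

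The linker genes also share letters before their start. RefSeq promoters of GRCm38.p6 (250 bases before to 50 after the start) were matched for 62 members. AAACACA, searched like the other motifs on both strands, was in 5 of 6 linker promoters against 7.17% of the 32788 promoters of all other genes. CCAAT was in 6 of 6 linker, 15 of 15 H2A, 14 of 14 H2B and 8 of 8 H3 promoters and in 3 of 12 H4 promoters, against 37.3% of all others. ATTTGCAT was in 5 of 14 H2B and 5 of 15 H2A promoters, against 1.70%. The replacement genes had CCAAT too, in 4 of 5 H2A and 2 of 2 H3 promoters. AAACACA and ATTTGCAT were each in 1 of 2 replacement H3 promoters and in 0 of 5 replacement H2A promoters. The 130 bases before the start are shown for the 2 linker genes that the genotype comparison turns on, Hist1h1c at chr13:23738677-23738806 on the plus strand and Hist1h1e at chr13:23622559-23622688 on the minus strand, with the motifs and the TATA box letters in capitals. None of these motifs overlaps another in these stretches, and a match is no measure of binding.
Hist1h1c: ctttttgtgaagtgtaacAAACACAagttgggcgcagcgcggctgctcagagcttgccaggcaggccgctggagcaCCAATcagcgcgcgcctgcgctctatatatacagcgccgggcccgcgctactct
Hist1h1e: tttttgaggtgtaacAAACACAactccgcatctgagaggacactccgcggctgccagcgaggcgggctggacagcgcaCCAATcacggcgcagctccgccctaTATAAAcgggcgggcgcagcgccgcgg

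The AAACACA and CCAAT stretches lie in the same order and at like distances in both promoters, 112 and 54 bases before the start in Hist1h1c and 115 and 52 in Hist1h1e. The exact letters TATAAA, 27 bases before the start, were found in Hist1h1e and not in this window of Hist1h1c. No variant of them was searched, so the stretch tatatata in the Hist1h1c window is not in capitals. The missing match therefore does not show that Hist1h1c lacks a TATA box.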

How the data were processed

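Single-cell libraries were made with the 10x 3′ v3 kit, per the labels' protocols, and processed with Cell Ranger 3.0.0 and Seurat 3.1.5 on mm10, per the submitters' processing notes. Matrix values deposited by the authors are raw UMI counts. The deposited cell tables give mitochondrial percent, cluster and type label. Filters on cells, removal of doublets, the annotation and the strand setting are not given in the sources used here.

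Counts were summed per label and library, scaled to CPM, and compared as log2 ratios with exact 95% intervals (Clopper-Pearson, conditional on both counts). Members were called at 1.5-fold and 20 CPM in at least 1 group. A ratio against 0 used a floor of 3 UMIs over the group. With 1 library a group, no test was run and no leave-one-out was possible. All cells deposited were used, and no doublet caller was run. Named with values were the 10 cluster and 6 replacement genes of highest mean CPM, members called between genotypes in AC, MG or EC, and the 6 largest and 3 smallest ratios in dividing imNeur cells at 20 UMIs. The members and lists were chosen with earlier results of these data known. Alternatives were TMM factors (edgeR 4.0.16) and DESeq2 1.42.0 size factors, used for scaling alone (R 4.3.3), other totals, per-cell means, thinned cells, cell filters and no minimum. Midbrain mNeur cells, astrocyte clusters, the interval rule for dividing cells and the separate linker sum were added after seeing the data. Python 3.11.15, numpy 2.4.6, scipy 1.17.1 and pandas 2.3.3 were used. The code was tested on simulated data for frontal cortex astrocytes (6943 genes, 200 changed by 2-fold). The calls recovered 99.5% of the changed genes and took 0.015% of the others, and 95.2% of intervals held the true ratio. The simulated counts carried Poisson counting error alone, with no spread between mice, libraries or cells. These figures thus check the code and give no rate of false calls between the genotypes.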

Additional observations from a re-analysis of the deposited data

Results flagged for a closer look

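The 4 patterns below had opposite directions between the genotypes in frontal cortex and midbrain, each with counting intervals that leave out 0 in both regions. The difference between regions was not tested, since each group is 1 library. In astrocytes the log2 ratio of transgenic over wildtype for H2afj was 0.22 in frontal cortex (0.10 to 0.35) and -0.17 in midbrain (-0.27 to -0.07). For Hist1h2bc in astrocytes it was 0.18 (0.10 to 0.25) and -0.21 (-0.27 to -0.14). Within frontal cortex astrocyte clusters 1 and 4 the Hist1h2bc ratio was 0.002 (-0.10 to 0.11) and -0.27 (-0.47 to -0.07). The higher transgenic value of the whole label was thus in neither cluster. In midbrain clusters 1, 3, 4, 5 and 10 the Hist1h2bc ratio was -0.32 to -0.16, and in cluster 22 it was 0.36 (-0.16 to 0.87). For Hist1h4d the log2 ratio was -0.41 and 0.59 in microglia and -0.18 and 0.46 in endothelial cells.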

How the results depend on the processing

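Between the genotypes, 10 calls of members over the 6 comparisons became 9 to 12 under the scaling, thinning, per-cell and cell-filter alternatives and 128 with no minimum CPM. Between the regions, 3 calls became 2 to 4, and 112 with no minimum. The added calls are of genes under 20 CPM. In dividing imNeur cells 34 calls without the interval rule became 31 to 46 under the alternatives, and 32 with it. Of 117 values of single members, 108 kept their direction and their side of 1.5-fold and 9 fell below it, all given beside the results: Hist1h1e in both endothelial pairs, Hist1h1d in frontal cortex microglia, Hist1h4d in midbrain microglia and Hist1h2ap between regions in transgenic microglia. The linker ratio of midbrain astrocytes was -0.76 in thinned cells, and -0.44, -0.89 and -2.43 within clusters 3, 10 and 22. The core ratio of frontal cortex astrocytes turned from 0.12 to -0.016 with cells under 10% mitochondrial UMIs and at least 500 genes. The cause was not tested. Outside the interval of the main setting lay 15 of 56 alternative values of the replacement sum and 5 of 64 of the linker sum. For the core sum it was 4 of 56 beside the 1 that turned, and for the cluster share of histone UMIs 32 of 152. No paired analysis was possible because each group is 1 library. Depth limits the rarer labels: genes under 20 CPM there rest on few UMIs.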
